A study of Mus musculus with 6 samples.

Results

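The glandular kallikreins are a tight family of secreted serine proteases, and 10 of them, Klk1, Klk1b1, Klk1b3, Klk1b5, Klk1b8, Klk1b9, Klk1b11, Klk1b16, Klk1b22 and Klk1b24, are described here among the 23361 genes of an RNA-sequencing table from mouse taste cells. They were picked by gene name, and with their values in this table already known. The table also holds 4 more Klk1b genes, Klk1b4, Klk1b21, Klk1b26 and Klk1b27, which are shown beside the 10 because they are copies of the same gene. Taste cells of the circumvallate and foliate (CV/Fol) papillae, which carry the taste buds of the rear tongue, were collected from C57BL/6 mice of 2 and 6 months of age after enzyme treatment of the lingual epithelium. The series' design text names the younger age once as 3 months and once as 2 months, and the sample labels, which were followed, give 2 months. The labels name no mutation or drug treatment for either age, the sex of the mice is not given in the sources used here, and each of the 3 libraries per age was made from the pooled cells of several mice. The authors deposited 1 FPKM value per gene and age, in which the fragments assigned to a gene are scaled by transcript length and by the mapped total. No value of a single library was analysed here, so no gene has an error, no difference could be tested, and every comparison below describes 2 pooled values.

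Klk1 encodes true tissue kallikrein, which cuts kininogen and releases kinin peptides that act on bradykinin receptors. In rodents the gene was copied many times, and the copies, the Klk1b genes, process growth factors and other secreted precursors. In the mouse they are best known from the granular convoluted tubule of the submandibular salivary gland, a duct segment whose kallikrein output is driven by androgen and is higher in males. The papillae studied here have minor salivary glands of their own, the von Ebner glands, which empty into their trenches.

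In 2-month-old CV/Fol taste cells, only Klk1b1 and Klk1b11 of the 10 members exceeded 1 FPKM, and both were several times lower at 6 months. Klk1b1 had 3.59 FPKM at 2 months against 0.620 FPKM at 6 months, a ratio of 5.79. Klk1b11 had 3.21 FPKM at 2 months against 0.701 FPKM at 6 months, a ratio of 4.58. Their neighbour Klk1b26, which is not among the 10, had the highest value of the family at both ages, 4.39 and 1.29 FPKM, a ratio of 3.40. Klk1 itself was nearly level, at 0.687 and 0.568 FPKM, and the other 7 members stayed under 0.5 FPKM at both ages. The family as a whole was scarce in this preparation beside the taste transduction gene Gnat3, which had 84.7 and 79.9 FPKM.

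**Figure D1:**
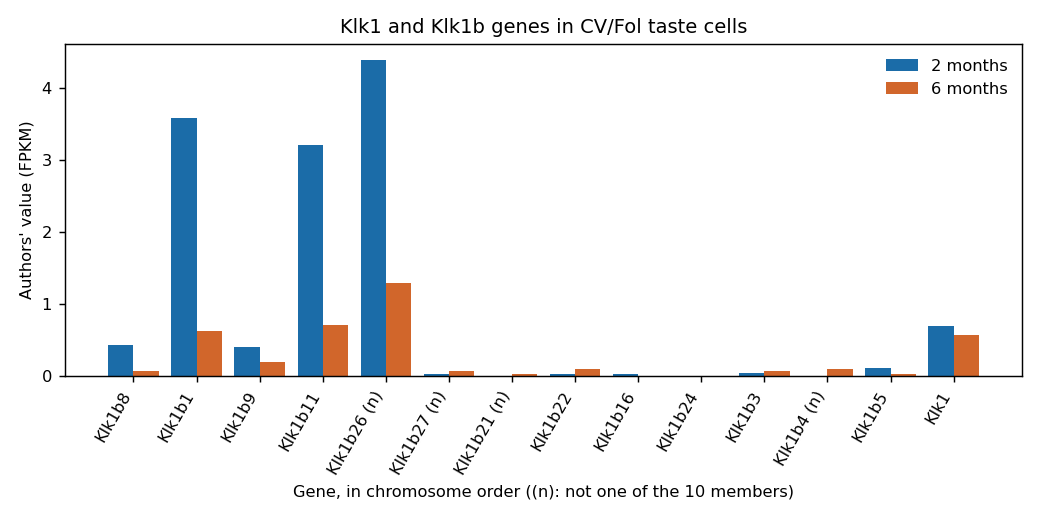
Bars give the authors' FPKM value at 2 months (blue) and 6 months (orange) for the 14 Klk1 and Klk1b coding genes in their order on chromosome 7; (n) marks the 4 genes that are not among the 10. Klk1b1, Klk1b11 and Klk1b26 stand above the others at 2 months, between 3.21 and 4.39 FPKM, and there are no error bars because 1 pooled value per age was analysed.

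The 14 genes lie on the plus strand of chr7:43950664-44229618 (GRCm38), a cluster of 279.0 kb, and each has 5 exons. How alike they are matters for every value here, since a fragment that matches several copies cannot be assigned to 1 of them by its sequence. Across the 91 pairs of genes, 81.4% to 95.1% of the aligned coding bases were identical, with a median of 86.8%. The window of 60 coding bases that varied most among the 3 highest genes, the low neighbours Klk1b8 and Klk1b9, and Klk1 is given below to show what tells the copies apart. It covers coding bases 296 to 355 in each gene (in Klk1b1, chr7:43970314-43970373, plus strand), and 33 of its 60 positions varied among the 6 genes. Capitals mark bases that differ from Klk1b1 at the same aligned position.
Klk1b1: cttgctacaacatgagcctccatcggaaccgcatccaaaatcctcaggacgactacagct
Klk1b9: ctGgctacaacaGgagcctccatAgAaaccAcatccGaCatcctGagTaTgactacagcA
Klk1b11: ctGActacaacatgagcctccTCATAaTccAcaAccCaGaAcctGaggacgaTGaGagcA
Klk1: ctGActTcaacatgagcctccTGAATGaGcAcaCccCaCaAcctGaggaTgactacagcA
Klk1b26: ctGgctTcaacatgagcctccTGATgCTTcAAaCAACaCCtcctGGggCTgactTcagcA
Klk1b8: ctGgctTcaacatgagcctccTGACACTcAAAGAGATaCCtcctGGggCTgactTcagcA

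In this window Klk1b9 differed from Klk1b1 at 11 positions, Klk1b11 and Klk1 at 18 each, Klk1b26 at 23 and Klk1b8 at 25. Over the whole coding sequence, the copy closest to Klk1b1 was Klk1b9, with 93.1% identity, and the copy closest to Klk1b26 was Klk1b8, with 92.9%. Klk1b11 was closest to Klk1b24, with 90.6%. Klk1b1 and Klk1b11 were 86.6% identical to each other, so the 2 members with the highest values were not each other's nearest copies. Each of the 3 high genes had as its nearest copy a gene with a far lower value at 2 months, since Klk1b9 had 0.401 FPKM, Klk1b8 had 0.425 FPKM and Klk1b24 was listed at 0.

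**Figure D2:**
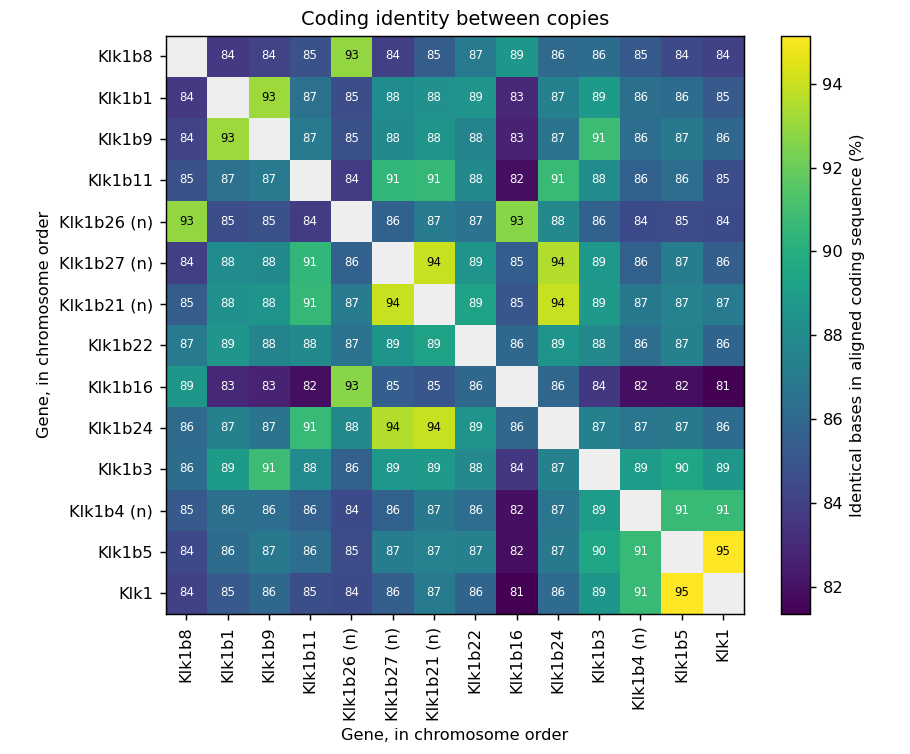
Each square gives the percentage of identical bases in the aligned coding sequences of 2 genes, with rows and columns in chromosome order. Klk1 and Klk1b5 form the closest pair (95.1%), and Klk1b1 and Klk1b9 (93.1%) and Klk1b8 and Klk1b26 (92.9%) are the close pairs at the other end of the cluster.

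How much of a transcript belongs to 1 gene alone was counted in stretches of 50 and 100 bases. For Klk1b1, 84.8% of all 50-base stretches occurred in no transcript of another annotated gene, and for Klk1b11 the share was 87.2%. The lowest share was 66.1%, for Klk1b24, and the highest 89.9%, for Klk1b16. With stretches of 100 bases the shares ran from 93.9% for Klk1 to 100% for Klk1b3, Klk1b9 and Klk1b22. Most of the Klk1b1 and Klk1b11 sequence is therefore not shared as an exact match of 50 bases, but the read length and the rule for shared reads are not given in the sources used here, so the split between copies remains uncertain for every member.

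**Figure D3:**
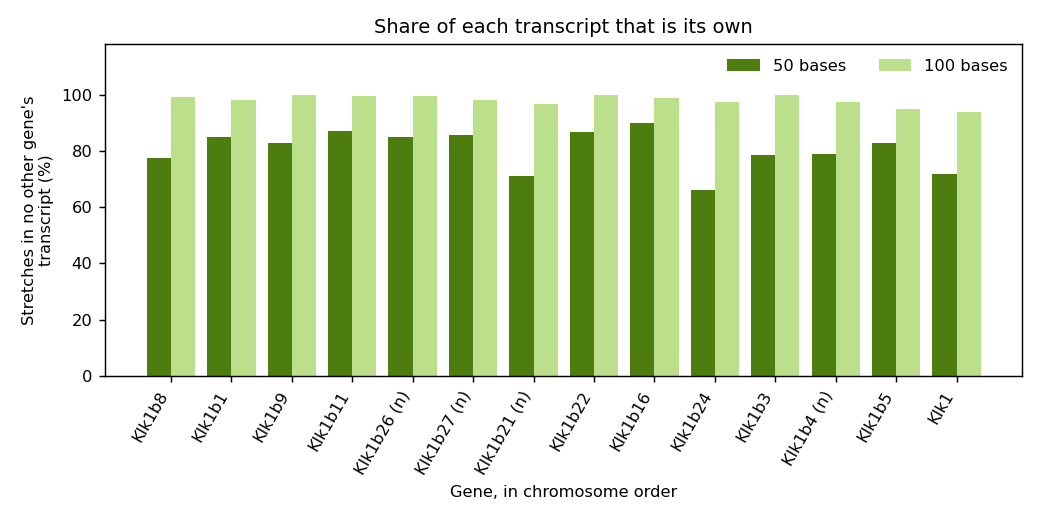
Bars start at 0 and give the percentage of 50-base (dark) and 100-base (light) stretches of each gene's longest coding transcript that occur in no transcript of another gene. Klk1b1 (84.8%) and Klk1b11 (87.2%) lie in the upper part of the 50-base range, while Klk1b24 (66.1%), Klk1b21 (70.9%) and Klk1 (71.6%) share the most.

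The values fell into stretches along the chromosome, a grouping that was made after the values were seen. The 5 coding genes at the end that adjoins Klk15 are Klk1b8, Klk1b1, Klk1b9, Klk1b11 and Klk1b26, within chr7:43950664-44016968. At 2 months they had 0.401 to 4.39 FPKM and held 92.9% of the summed FPKM of the 14 genes. Every 1 of these 5 was lower at 6 months, and their sum was 12.02 FPKM at 2 months against 2.87 FPKM at 6 months, a ratio of 4.18. The next 8 genes, from Klk1b27 to Klk1b5, had at most 0.110 FPKM at 2 months against 0.0903 FPKM at 6 months. Among these 8, 2 were lower at 6 months, 5 were higher and 1 was listed at 0 at both ages. Klk1 lies at the far end and was the only gene outside the first 5 with more than 0.2 FPKM.

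Within the first stretch, Klk1b8 and Klk1b9 were the low copies. Klk1b8 had 0.425 FPKM at 2 months against 0.0661 FPKM at 6 months, a ratio of 6.43, which is the largest among the members with a value above 0 at both ages. Klk1b9, known as an epidermal growth factor binding protein, had 0.401 FPKM at 2 months against 0.192 FPKM at 6 months, a ratio of 2.09. All 5 genes of the stretch thus had a ratio above 2, but those of Klk1b8 and Klk1b9 rest on values under 0.5 FPKM. An annotated antisense gene, Gm44756, spans Klk1b8, Klk1b1 and the first part of Klk1b9, and 0 of their exon bases lie in its exons.

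The members of the middle stretch were close to the smallest values that the table holds. Among 390 single-transcript genes with very low values at 2 months, the product of FPKM and transcript length in kilobases lay most often near 0.0213, and among 388 such genes at 6 months near 0.0163. Klk1b3 had 0.0382 FPKM at 2 months against 0.0622 FPKM at 6 months, which are 1.60 and 3.40 times that product for its length. Klk1b22, another epidermal growth factor binding protein, had 0.0303 and 0.0903 FPKM, or 1.22 and 4.75 times. Klk1b16, known as gamma-renin, had 0.0307 FPKM at 2 months and was listed at 0 at 6 months. Klk1b5 had 0.110 and 0.0216 FPKM, or 7.19 and 1.85 times, and Klk1b24 was listed at 0 at both ages. The length used was that of the longest GENCODE coding transcript, 1391 bases for Klk1b5, and a shorter transcript would lower its multiples. By the same measure Klk1b1 stood at 147 and 33.1 times, Klk1b11 at 130 and 37.2 times and Klk1 at 30.9 and 33.3 times. Klk1b9 stood at 16.4 and 10.3 times and Klk1b8 at 17.2 and 3.49 times.

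On the log2(FPKM + 1) scale, which understates the change of low genes, Klk1b1 had a difference of -1.50 and Klk1b11 of -1.31 (6 minus 2 months). Counts of genes past 2-fold, here and for the gene lists, are on this scale, on which a gene under 1 FPKM at both ages cannot pass. These 2 members were at least 2-fold lower, where 0.578% of all 23361 genes and 1.04% of the 12652 genes that averaged 1 FPKM or more were (0.308% of all genes were at least 2-fold higher). Since the members were chosen with this contrast known, nothing is read from that count. The difference was -0.42 for Klk1b8, -0.23 for Klk1b9, -0.12 for Klk1b5 and -0.11 for Klk1, and the remaining 4 members lay between -0.04 and 0.08. Of the 10 members, 7 were lower at 6 months, 2 were higher and 1 was at 0 at both ages, with a median of -0.11. Over all 23361 genes, 9888 were lower and 8990 higher, with a median of 0. With a pseudocount of 0.1 the members' median was -0.58, and Klk1b8 was also past 2-fold, at -1.66, where 1.04% of all genes were at least 2-fold lower.

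**Figure D4:**
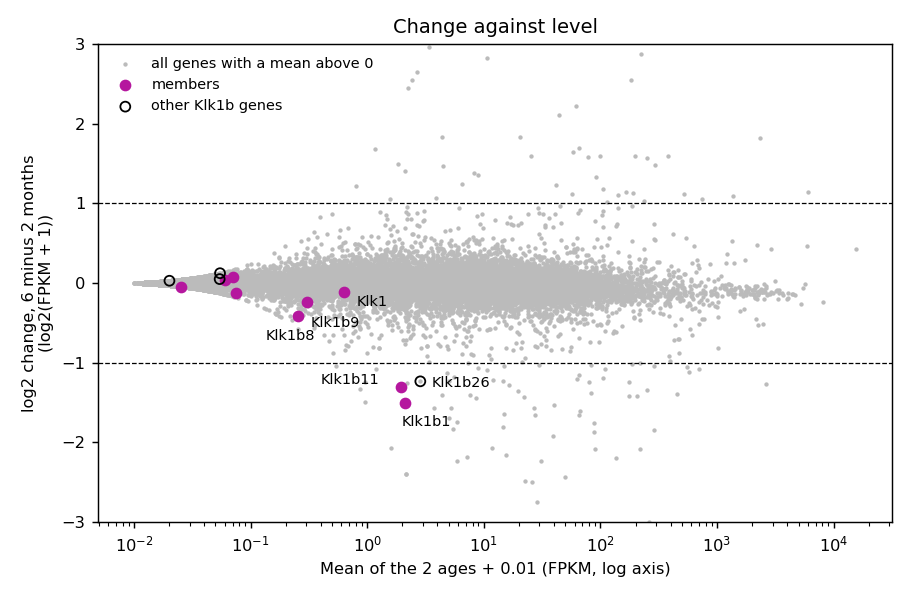
The log2 difference (6 minus 2 months, log2(FPKM + 1)) is plotted against the mean of both ages plus 0.01 FPKM on a log axis for the 18878 genes with a mean above 0, of which 88 lie outside the axis limits of 3 in either direction. Klk1b1, Klk1b11 and Klk1b26 lie below the dashed line at a 2-fold difference. The other plotted members lie between -0.42 (Klk1b8) and 0.08 (Klk1b22), at means under 1 FPKM, where this scale understates the change.

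Since the handling of shared fragments is not given, the values are also given as sums over the family. The 10 members summed to 8.53 FPKM at 2 months against 2.32 FPKM at 6 months, a ratio of 3.67, and all 14 genes summed to 12.9 and 3.79 FPKM, a ratio of 3.42. Klk1b1 and Klk1b11 made up 79.8% of the members' sum at 2 months and 56.9% at 6 months. Without them, the other 8 members summed to 1.72 FPKM at 2 months against 0.9998 FPKM at 6 months, a ratio of 1.72. Klk1 accounted for 5.31% of the sum of the 14 genes at 2 months and 15.0% at 6 months, while its own value differed by a ratio of 1.21. In pooled cells, fewer cells that express a gene and less RNA per cell cannot be told apart.

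The promoters were compared because all copies of the first stretch were lower at 6 months. RefSeq promoter windows (GRCm38.p6, 250 bases before to 50 after the listed start) were found for all 10 members and the 4 other genes. The canonical letters TATAAA were in 13.6% of all 32851 windows, on either strand, and in 0 of the 14 genes. The letters TTTAAA were in 13.2% of all windows, and in 9 of the 10 members and all 4 other genes. The exception was Klk1. The longer string ATTTAAA, which contains TTTAAA, was in 5.65% of all windows and in Klk1b1, Klk1b11 and Klk1b16 among the members as well as in Klk1b26. The 26 bases around TTTAAA (in capitals) are given below for the first stretch, in chromosome order, and for 3 of the near-silent members, to set the high genes beside the low ones.
Klk1b8 (chr7:43950606-43950631, plus strand): ggggagaatgagggttTTTAAAgtca
Klk1b1 (chr7:43966702-43966727, plus strand): tggggagaatgagggaTTTAAAgtct
Klk1b9 (chr7:43976012-43976037, plus strand): ggggagaatgagggttTTTAAAgtct
Klk1b11 (chr7:43995821-43995846, plus strand): ggggagaatgagtgtaTTTAAAatat
Klk1b26 (chr7:44012636-44012661, plus strand): ggagagaatgagggtaTTTAAAatct
Klk1b22 (chr7:44112617-44112642, plus strand): ggggagaatgagggttTTTAAAgtct
Klk1b16 (chr7:44137235-44137260, plus strand): ggggagaactcaggtaTTTAAAatct
Klk1b24 (chr7:44188189-44188214, plus strand): tggggagaatgagggtTTTAAAgtct

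In the first stretch TTTAAA began 26 to 44 bases before the listed start. For Klk1b26 and Klk1b16 the GENCODE annotation has a longer transcript that starts upstream of these letters. The 3 genes with the highest values, Klk1b1, Klk1b11 and Klk1b26, all had ATTTAAA, and Klk1b16, which had it too, was at 0.0307 FPKM at 2 months, so the string did not separate high from low genes. These matches describe letters in short windows and not binding.

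Genes of the kallikrein-kinin system, into which Klk1 feeds, were also compared between the ages. Of 12 listed genes, 7 were lower and 2 higher at 6 months, and 3 were at 0 at both ages. In either direction 0 were past 2-fold, where 0.578% of all 23361 genes were at least 2-fold lower and 0.308% higher. Only 4 of the 12 averaged 1 FPKM or more, and nothing is read from that count. Bdkrb2, the constitutive bradykinin receptor, had 3.67 and 3.65 FPKM. Among the peptidases that degrade kinins, Mme had 27.6 FPKM at 2 months against 25.7 FPKM at 6 months, Ace had 2.27 and 2.50 FPKM, and Cpn1 had 14.8 and 11.5 FPKM. The precursor of the kinins was scarce, as Kng1 was listed at 0 at both ages and Kng2 had 0.503 and 0.308 FPKM. Of the growth factor and renin genes whose products the copies are known to bind or process, Egf had 0.867 and 0.833 FPKM and Ren1 had 0.343 and 0.179 FPKM, while Ren2 had 3.94e-05 FPKM at 2 months against 0.0498 FPKM at 6 months.

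Of the 8 listed inhibitors of serine proteases in the table, 4 averaged 1 FPKM or more, and these were abundant beside the glandular kallikreins. Of the 8, 6 were lower and 1 was higher at 6 months. Of all 23361 genes, 9888 were lower and 8990 higher. Slpi, an inhibitor secreted by epithelia, had 957.5 FPKM at 2 months against 454.2 FPKM at 6 months, and Wfdc2 had 563.8 and 410.6 FPKM. Spink5, which inhibits the epidermal kallikreins, had 156.0 and 162.7 FPKM, and Pebp1 was nearly level, at 193.0 and 192.7 FPKM. The other tissue kallikreins of the same chromosome region, most of them epidermal, were 10 of 12 lower and 1 higher at 6 months, with a median difference of -0.55. Their 2 genes past 2-fold, Klk7 and Klk9, were both lower, at -2.48 and -1.23, where 0.578% of all 23361 genes were. Klk6, which averaged under 1 FPKM, had 1.15 FPKM at 2 months against 0.413 FPKM at 6 months, a ratio of 2.79. The most abundant genes of this list differed less. Klk10 had 857.3 FPKM at 2 months against 625.3 FPKM at 6 months, a ratio of 1.37. Klk14 had 702.5 and 469.3 FPKM, Klk13 had 366.2 and 283.0 FPKM, and Klk11 had 251.5 and 236.5 FPKM. Between these genes and the glandular cluster, Klk4 had 0.0681 and 0.125 FPKM and Klk15 was listed at 0 at both ages.

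Markers of gland cells were examined beside the kallikreins, since the preparation could carry RNA of the minor glands. Of 8 listed genes of the granular convoluted tubule, 2 averaged 1 FPKM or more (Crisp1 and Crisp3), Smr2 was listed at 0 at both ages, and the list summed to 18.0 FPKM at 2 months against 12.6 FPKM at 6 months. Of these 8 genes, 5 were lower and 2 higher at 6 months. The number past 2-fold was 0, where 0.578% of all 23361 genes were at least 2-fold lower and 0.308% higher. Of the 8 salivary duct genes in the table, all were lower at 6 months, beside 9888 of all 23361 genes, with a sum of 527.9 FPKM at 2 months against 445.5 FPKM at 6 months. The most abundant, Krt19 (308.3 and 262.1 FPKM) and Krt7 (200.8 and 167.5 FPKM), made up most of that sum at both ages. They are keratins of other simple epithelia as well, so the sum does not measure duct cells alone.

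Secretory cell genes of the salivary and lingual glands were lower in 15 and higher in 2 of the 20 listed genes in the table. Of the 8 that averaged 1 FPKM or more, 7 were lower and 1 higher, beside 6798 lower and 5854 higher of the 12652 such genes overall. The list summed to 132.0 and 92.2 FPKM, and Car6, Prh1 and Prol1 were listed at 0 at both ages. On the log2(FPKM + 1) scale Bpifb1 was the 1 gene of this list past 2-fold, with 28.6 FPKM at 2 months against 10.6 FPKM at 6 months. By the ratio of the FPKM values themselves 4 more passed, of which Bpifa1 (0.935 and 0.0560 FPKM), Prb1 (0.419 and 0.130 FPKM) and Lpo (0.403 and 0.121 FPKM) were lower at 6 months and Dcpp2 (1.45 and 3.28 FPKM) was higher. Of 11 listed von Ebner gland genes in the table, 4 were lower and 3 higher (Lcn4, Bpifb3 and Bpifb5, each under 0.25 FPKM), and Obp2a, Obp2b, Lcn3 and Lcn11 were listed at 0 at both ages. The 3 that averaged 1 FPKM or more (Lipf, Lyz1 and Pigr) were all lower, and the list summed to 126.1 FPKM at 2 months against 50.97 FPKM at 6 months. Lipf, the lipase of these glands, had 83.7 FPKM at 2 months against 14.7 FPKM at 6 months. Its ratio was 5.69, beside 5.79 for Klk1b1. Lyz1 had 25.0 and 21.2 FPKM and Pigr had 16.5 and 14.3 FPKM, ratios of 1.18 and 1.16. Most of the list's sum at 2 months was that of Lipf. The part of gland cells in the kallikrein values was not tested. Of 12 taste cell markers, 11 averaged 1 FPKM or more, and 5 were lower and 7 higher at 6 months. The number of them past 2-fold was 0, where 0.578% of all 23361 genes were at least 2-fold lower and 0.308% higher. Nothing is read from that count.

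**Figure D5:**
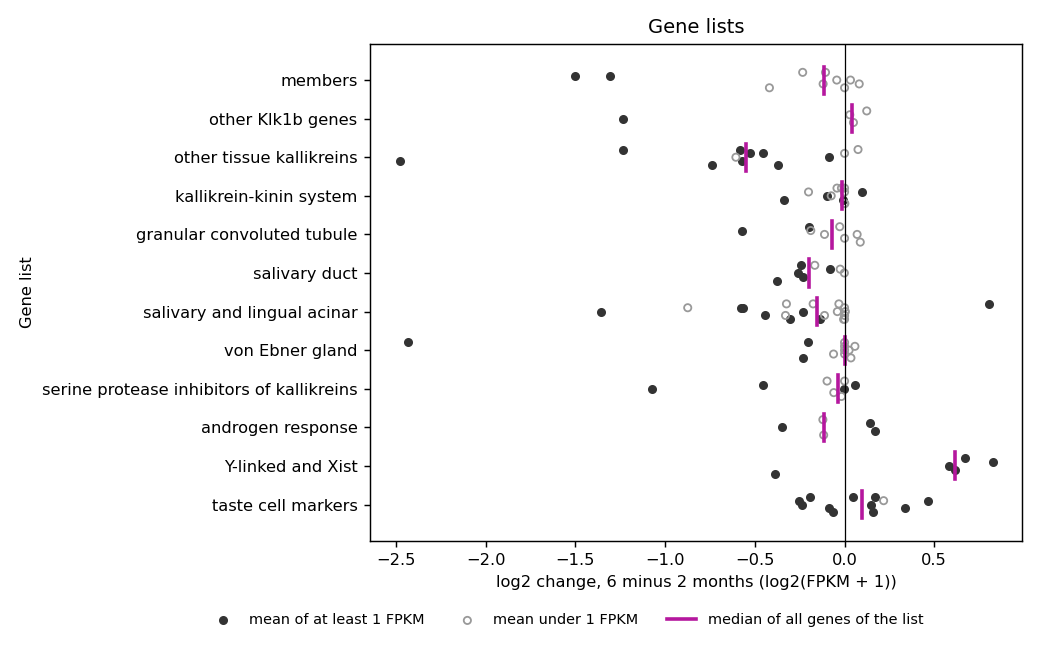
Each point is 1 gene, placed by its log2 difference (6 minus 2 months, log2(FPKM + 1)); filled points averaged 1 FPKM or more, open points a lower mean, and the bar is the median of all genes of the list. Klk1b1 and Klk1b11 (filled, top line) lie at -1.50 and -1.31, and the medians of the 4 gland lists lie between -0.20 and 0 over all their genes and between -0.39 and -0.23 over those averaging 1 FPKM or more.

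Sex-linked and androgen-related genes were included because glandular kallikreins are known to depend on androgen in the submandibular gland. The 4 Y-linked genes Ddx3y, Eif2s3y, Kdm5d and Uty were all higher at 6 months, by 0.58 to 0.83 on the log2(FPKM + 1) scale. Xist, transcribed in female cells, had 42.6 FPKM at 2 months against 32.3 FPKM at 6 months. Of the 5 listed genes of androgen response, 3 were lower and 2 higher. The number past 2-fold was 0, where 0.578% of all 23361 genes were at least 2-fold lower and 0.308% higher. The part of a different share of male mice in the kallikrein values was not tested.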

How the data were processed

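RNA of isolated CV/Fol taste cells was sequenced from 3 libraries at 2 months and 3 at 6 months. For mapping to GRCm38/mm10 the authors used TopHat 2.0.7, followed by Cufflinks 2.1.1 on the RefSeq annotation and Cuffdiff between the ages, and they deposited FPKM values, 1 per gene and age. The columns were assigned to ages by the group letter in the sample titles. The table also holds p-values of the authors' own comparison, which were not used. The kit is not described as stranded in the sources used here, and sequencing depth cannot be recovered from these values. Whether the pools came from separate groups of animals is not stated in the labels.

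Log2 differences were computed from FPKM + 1, 6 minus 2 months, without a filter on low values, and no test could be made. The members and gene lists were chosen with earlier results of these data known. All members were named, and of other lists mainly genes averaging 1 FPKM or more, at most 6 per list. Those named with lower means were chosen after their values were seen, and some listed genes are not reported here. Gene positions, transcripts and coding sequences came from GENCODE annotation of GRCm38 and promoters from RefSeq. Coding sequences were aligned pairwise, and the varying window came from a joint alignment. The fold counts and the counting of shared stretches were tested on simulated data. The software was Biopython 1.88, matplotlib 3.10.9, numpy 2.4.6 and pandas 2.3.3 under Python 3.11.15.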

Additional observations from a re-analysis of the deposited data

How the results depend on the processing

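No paired analysis was possible because libraries enter only as 1 pooled value per age, and for the same reason no library was left out. The members' median log2 difference was -0.11, and it was -0.58 with a pseudocount of 0.1 and -1.41 over the 2 members averaging 1 FPKM or more. Both of these members, Klk1b1 and Klk1b11, were under 1 FPKM at 6 months and reached that average only through their 2-month values. A low median follows from that filter, and nothing is read from it. The median was also taken over other sets of genes. With the 4 other Klk1b genes it was -0.075, and without Klk1b1 and Klk1b11 it was also -0.075. The ratio of the summed FPKM (6 to 2 months) was 0.272, and 0.276 with both ages at the same upper quartile, 0.293 with the 4 other Klk1b genes and 0.580 without Klk1b1 and Klk1b11. The number of members past 2-fold was 2, and 3 with a pseudocount of 0.1. The sets with the 4 other genes and without the 2 high members were tried after the data had been seen. Under the common upper quartile, which scaled the 6-month values by only 1.015, 0 members changed direction. A change of pseudocount cannot reverse a difference, and a lower one always enlarges it, except for Klk1b24, which is at 0. The directions under the pseudocount of 0.1 are therefore no check on the results. Of the 8 members under 1 FPKM on average, Klk1b3, Klk1b5, Klk1b16 and Klk1b22 had at most 7.19 times the most frequent lowest value. That multiple was taken at the length of their longest transcript.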

Other observations

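The cluster also holds 10 annotated Klk1b pseudogenes, and the 1 of them in the table, Klk1b7-ps, lies just before Klk1b8 and had 0.0740 FPKM at 2 months and was listed at 0 at 6 months. On the other side of the cluster, past Klk1, the next coding genes of the table were 2410002F23Rik, with 26.1 and 25.6 FPKM, Clec11a, with 1.58 FPKM at 2 months against 3.72 FPKM at 6 months, and Shank1, with 0.703 and 1.38 FPKM. By the ratio of FPKM values Clec11a was more than 2-fold higher at 6 months, and on the log2(FPKM + 1) scale 0 of these 3 neighbours were past 2-fold. Another gene, Gm10109, overlaps Klk1 on the opposite strand and shares 0 of its exon bases.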
